A study of Mus musculus with 6 samples.

Results

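The respiratory chain was followed in the liver transcriptome through 36 genes for its subunits, 13 encoded by mitochondrial DNA and 23 by nuclear chromosomes. The members were taken by gene symbol from the deposited count table of 55802 rows, and all 36 were found and had enough counts to be tested. By complex, the set held 12 genes of complex I, 4 of complex II, 5 of complex III, 11 of complex IV and 4 of ATP synthase (complex V). The set is a selection. A further 62 nuclear subunit genes of complexes I, III, IV and V were kept as a separate list.

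The libraries came from livers of C57BL/6 mice of wild-type genotype. The control group (n = 3) had received oil and the other group (n = 3) carbon tetrachloride (CCl4), a solvent that harms the liver once hepatocytes have turned it into a radical. The labels give no dose, duration, age or sex, and they do not state whether each library is a different animal. The p-values therefore measure only how far these libraries spread, which may be technical.

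The respiratory chain sits in the inner mitochondrial membrane. Complex I (NADH dehydrogenase) and complex II (succinate dehydrogenase) pass electrons to coenzyme Q, complex III passes them to cytochrome c, and complex IV (cytochrome c oxidase) passes them to oxygen. Complexes I, III and IV pump protons, and ATP synthase uses the return of those protons to make ATP. Complex II is built from nuclear genes alone, while each of the other complexes mixes nuclear subunits with subunits made inside the organelle. The mitochondrial genome is transcribed as long precursors from both strands that are cut at the tRNAs between the messages, while each nuclear subunit has its own promoter. Hepatocytes are rich in mitochondria and use them for fatty acid oxidation, the urea cycle and gluconeogenesis.

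A short stretch of the cytochrome c oxidase subunit gene mt-Co2 shows what a read can and cannot tell at these genes. Bases 445 to 504 of its transcript, counted from 1 at the 5′ end, are printed with the same stretch of a pair of annotated nuclear pseudogenes. Capitals mark the bases at which a pseudogene differs from mt-Co2.
mt-Co2: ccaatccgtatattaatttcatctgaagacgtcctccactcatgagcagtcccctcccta
Gm28661: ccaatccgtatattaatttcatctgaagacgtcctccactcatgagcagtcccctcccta
Gm13341: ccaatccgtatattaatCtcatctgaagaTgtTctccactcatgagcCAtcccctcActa
Gm28661 matched mt-Co2 with 0 differences over 681 of 684 bases, so a read from within this match fits both genes. Gm13341 differed at 6 of the 60 bases shown and was 95.9% identical over the gene. The table held 20 to 44 counts per library for Gm13341 but 1874 to 2309 for Gm28661.

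Copies of this kind, at least 99% identical over at least 100 bases, were annotated for 7 of the 13 mitochondrial members. They covered at least 90% of the transcript of mt-Nd3, mt-Nd4l, mt-Co2, mt-Co3 and mt-Atp6, and a part of mt-Nd4 and mt-Co1. The counting of reads that match several genes was a setting not given in the sources used here. Levels were compared per transcript length, in control CPM (counts per 1000000, TMM-scaled) per kb. The 5 genes with a copy of nearly the whole transcript stood at 155 to 428 CPM per kb. Genes with no copy, or a copy of only a part, stood far above them, with mt-Co1 at 16011, mt-Cytb at 6863, mt-Nd1 at 5305, mt-Nd2 at 3648 and mt-Nd5 at 2520. mt-Nd4, with a copy of part of its transcript, stood at 2756. The copy of mt-Atp6, Gm10925, had 5599 to 6341 counts per control library, more in each than mt-Atp6 itself, which had 5228 to 5724. The exceptions were mt-Nd6, at 366 and with no such copy, which is the only member transcribed from the other strand, and mt-Atp8, at 10.9, which shares 43 bases with mt-Atp6. Those 43 bases lie within the match of Gm10925. Only annotated transcripts were searched, so a copy that is not annotated would have been missed. The level of an mt gene with such a copy is therefore uncertain, while its ratio between groups compares like with like only if reads were shared out alike in all libraries. Counts of mt-Nd4l and its copy Gm10222 did not move together. In controls mt-Nd4l had 953, 965 and 1358 counts and Gm10222 had 700, 674 and 568. In CCl4 livers they had 800, 942 and 630, and 501, 479 and 414. How evenly reads were shared out at the other genes was not tested.

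**Figure D1:**
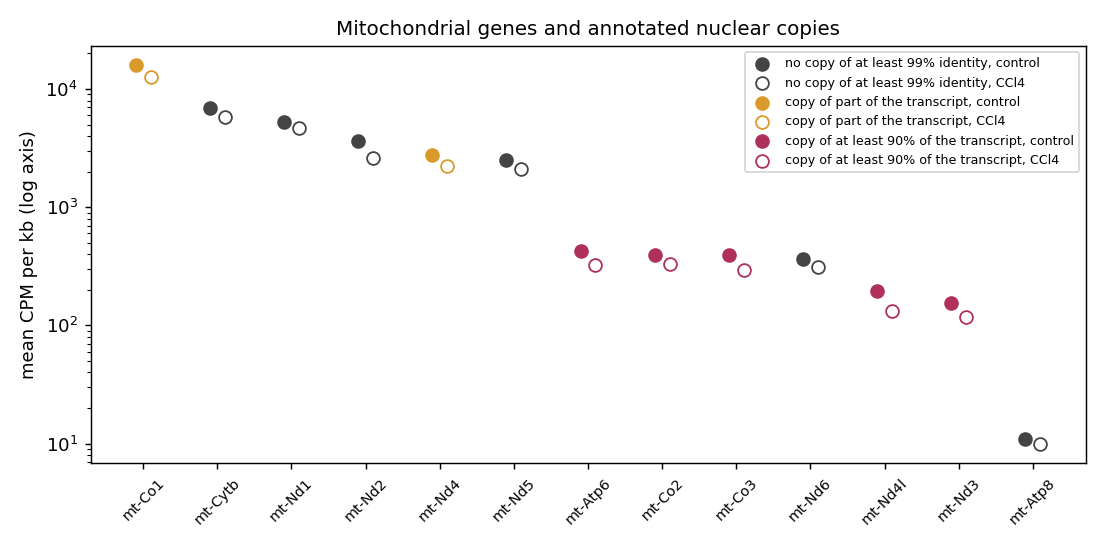
Mean CPM per kb (log axis) of the 13 mitochondrially encoded genes in control (filled) and CCl4 (open) libraries, coloured by whether an annotated nuclear copy of at least 99% identity exists. The 5 genes with a copy of nearly the whole transcript lie between 155 and 428 CPM per kb in controls, below the other genes except mt-Nd6 and mt-Atp8.

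Transcripts of most of the 36 members were modestly lower in the CCl4 livers under TMM scaling. With edgeR's quasi-likelihood test and Benjamini-Hochberg adjustment over 15579 genes, 25 of 36 members passed an adjusted p of 0.05 with lower CPM, where 20.1% of all tested genes did so. With higher CPM 0 of 36 passed, where 21.2% of all genes did. The count higher was also 0 at an unadjusted p under 0.05, with DESeq2 and with limma-voom. The median log2 fold change (CCl4 over control) was -0.22 over the members and 0.00056 over all tested genes. Groups did not overlap, with all CCl4 libraries below all controls, for 30 of 36 members, against 26.4% of all genes. Apart from mt-Atp8 and Cox7a1, the members are abundant transcripts, and abundant transcripts were called lower more often. Among 3518 genes of at least 40 CPM, 42.7% were called lower, 49.7% had CCl4 libraries all below the controls, and the median was -0.13. In bulk liver RNA, fewer cells of a type and less RNA per cell cannot be told apart.

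How many members passed depended on the scaling of the libraries. Upper quartile scaling called 10 members lower, and library size alone called 7 lower and 1 higher (Sdhd, 0.16, adjusted p = 0.0459). These scalings moved the median of all genes to 0.087 and 0.147. A scaling factor shifts all genes of a library alike. The members therefore stayed at -0.22 relative to that median under all of these scalings, which adds no support of its own. Leaving out 1 library left between 12 and 26 members called. Calls that held under every scaling and with every library left out in turn were those of 7 members, mt-Nd2, mt-Nd3, mt-Co1, mt-Co3, mt-Atp6, Sdha and Cox6c. When tested against a minimum fold change of 1.2, mt-Nd2 and Sdha alone among these stayed called.

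Markers of some other cells moved with the groups. Summed endothelial markers overlapped between groups (213 to 221 CPM in controls and 207 to 226 in CCl4 livers). So did summed lymphocyte markers (6.37 to 7.81 and 6.62 to 9.27 CPM). Over 10 macrophage and monocyte markers, all called higher, the summed level was 248 to 321 CPM in controls and 803 to 901 in CCl4 livers. Over 8 stellate cell and fibroblast markers, 7 of them higher, it was 236 to 297 and 1036 to 1127 CPM. The 5 markers of cycling cells, all higher, summed to 10.3 to 14.3 CPM in controls and to 76.9 to 159 in CCl4 livers. The summed level of 8 hepatocyte markers, which define the labelled tissue and of which 3 were called lower and 1 higher (1 and 0 without control replicate 3), overlapped between groups (100087 to 107187 and 100187 to 105659 CPM). The part of these cells in the lower subunit transcripts was not tested. As a log2 ratio to the summed hepatocyte markers, the sums of the members did not overlap between groups and differed by -0.31 on the log2 scale for the mitochondrial sum and by -0.19 for the nuclear sum. Alb, the albumin gene, gave most of the hepatocyte marker counts in every library. Relative to Alb alone, the nuclear sum differed by -0.24, also without overlap. mt-Co1 makes up close to 48.5% of the mitochondrial sum in controls.

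**Figure D2:**
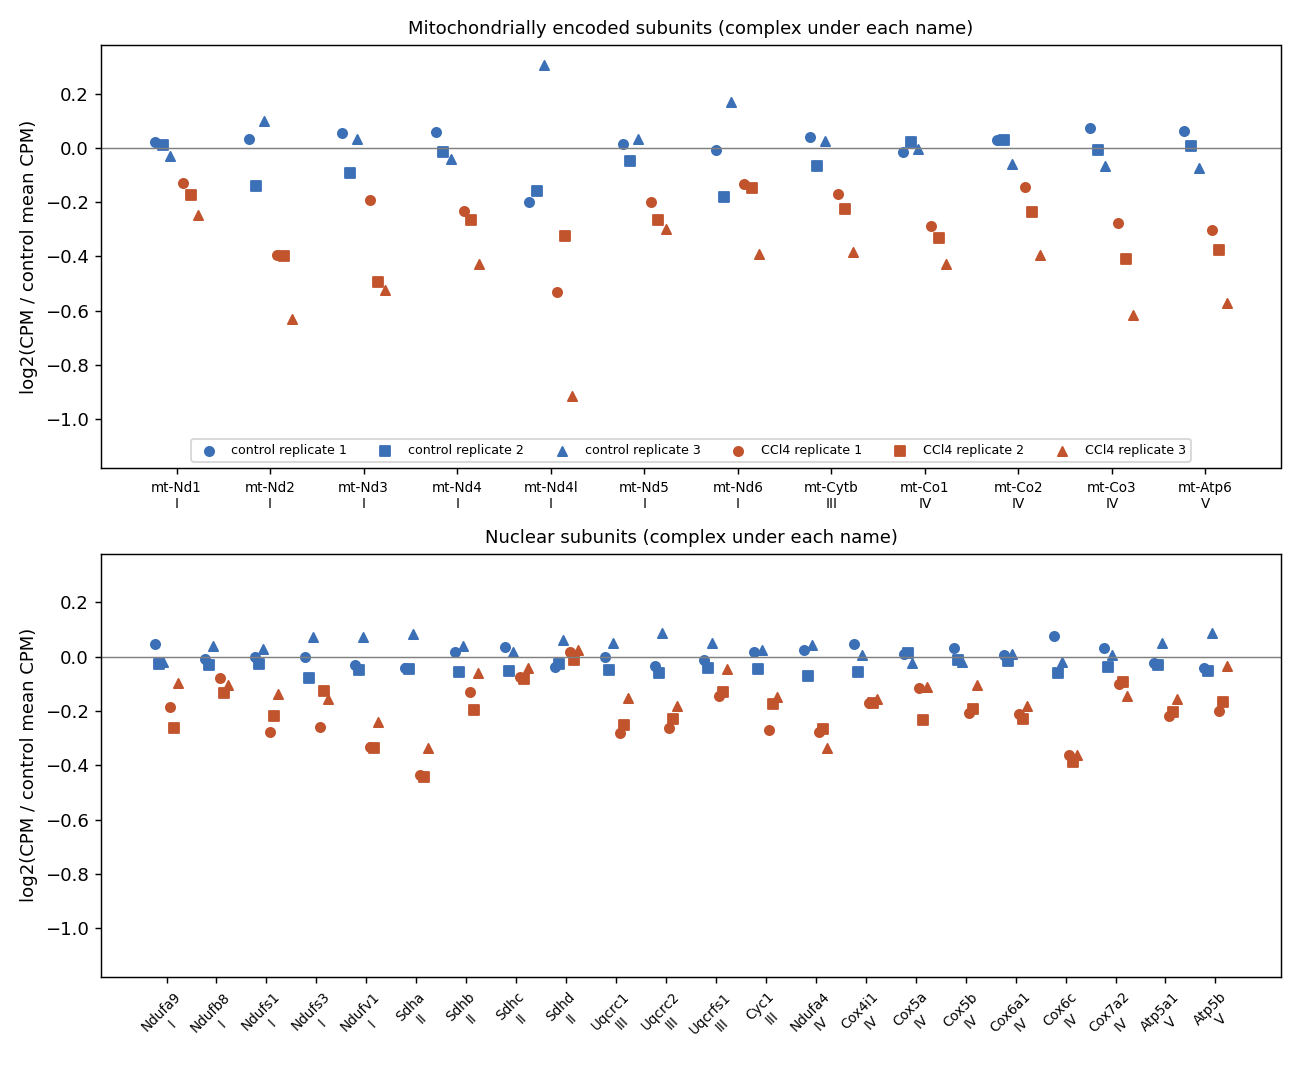
CPM of each member in each library on a log2 scale, relative to the control mean, for mitochondrially encoded (top) and nuclear (bottom) subunits; mt-Atp8 and Cox7a1, with few counts, are left out. In the top panel CCl4 replicate 3 (triangles) is the lowest CCl4 library for every gene, while in the bottom panel it is the highest for most genes.

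Mitochondrially encoded subunits of complex I were lower for 5 of 7 genes. mt-Nd2, a membrane subunit of the proton-pumping arm, stood at 3869, 3438 and 4054 CPM in control replicates 1, 2 and 3 and at 2877, 2871 and 2445 CPM in CCl4 replicates 1, 2 and 3. All CCl4 libraries lay below all controls, and the fold change was the furthest from 0 among the called members (log2 fold change -0.47, SE 0.09, adjusted p = 0.00248). mt-Nd1, the membrane subunit next to the site of coenzyme Q reduction and the most abundant of these genes, stood at 5156, 5108 and 4966 CPM in controls and 4640, 4496 and 4272 CPM in CCl4 livers. The groups did not overlap, but the call was marginal (-0.18, SE 0.06, adjusted p = 0.0443) and was lost without any one of the 6 libraries (0.0576 to 0.125) and under upper quartile scaling (0.251). The membrane subunits mt-Nd3 (-0.40, adjusted p = 0.0068), mt-Nd4 (-0.31, adjusted p = 0.00816) and mt-Nd5 (-0.26, adjusted p = 0.0103) were also called. mt-Nd5 lost its call without CCl4 replicate 2 (adjusted p = 0.0503).

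The remaining mitochondrial complex I genes, mt-Nd4l and mt-Nd6, were not called. mt-Nd4l, whose transcript overlaps that of mt-Nd4 by 7 bases, stood at 50.7, 52.1 and 71.9 CPM in controls and at 40.3, 46.5 and 30.9 CPM in CCl4 livers. Its libraries were the most scattered of the complex I genes, with control replicate 3 high and CCl4 replicate 3 low (-0.57, SE 0.20, adjusted p = 0.0738). When counts of its nuclear copy Gm10222 were added, it was called at the same size (adjusted p = 0.00701). mt-Nd6 stood at 189, 167 and 214 CPM in controls and 173, 171 and 145 CPM in CCl4 livers. Its groups overlapped (-0.22, SE 0.10, adjusted p = 0.116). It overlaps mt-Nd5 by 14 bases on the opposite strand, and the use of strand in counting was likewise not given.

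The nuclear complex I members belong to the arm that takes electrons from NADH, apart from Ndufb8, a membrane arm subunit, and Ndufa9, which lies at the junction of the arms. Of these 5 genes, 4 were called lower. Ndufv1, which holds the flavin that accepts electrons from NADH, stood at 133, 131 and 143 CPM in controls and 107, 107 and 115 CPM in CCl4 livers. The highest CCl4 library lay well below the lowest control (-0.30, SE 0.06, adjusted p = 0.00259). Ndufs1, an iron-sulfur subunit, stood at 125, 123 and 128 CPM in controls and at 103, 107 and 114 CPM in CCl4 livers, again without overlap (-0.21, adjusted p = 0.0136). Ndufa9 and Ndufs3 each had a log2 fold change of -0.18 (adjusted p = 0.0328 and 0.0396). Ndufb8 was not called (-0.10, adjusted p = 0.143). Calls were lost without CCl4 replicate 1 or CCl4 replicate 2 for Ndufs1 (adjusted p 0.053 to 0.0589), and without those or control replicate 1 or 3 for Ndufa9 (0.0599 to 0.133) and Ndufs3 (0.0589 to 0.144).

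Complex II was split among its subunits. Sdha, the flavoprotein that oxidises succinate, stood at 562, 560 and 612 CPM in controls and 428, 425 and 458 CPM in CCl4 livers. It showed a clear gap between the groups (-0.40, SE 0.06, adjusted p = 0.000944), and its call held under every scaling and without any one library. The iron-sulfur subunit Sdhb (-0.13, adjusted p = 0.106) and the membrane anchors Sdhc (-0.07, adjusted p = 0.339) and Sdhd were not called. Sdhd stood at 185, 187 and 198 CPM in controls and at 193, 189 and 193 CPM in CCl4 livers. All its CCl4 libraries lay within the control range (0.01, 95% interval -0.11 to 0.13, adjusted p = 0.894). Sdhd was the only member with a fold change above 0 under TMM scaling. The difference between Sdha and the other subunits of the complex was not tested.

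In complex III, the mitochondrial subunit mt-Cytb and 3 of 4 nuclear members were called lower. mt-Cytb, the cytochrome b at the centre of the complex, stood at 8079, 7489 and 7986 CPM in controls and at 6986, 6723 and 6024 CPM in CCl4 livers, without overlap (-0.26, SE 0.08, adjusted p = 0.0231). Leaving out control replicate 1 or 3 or CCl4 replicate 2 ended this call (adjusted p 0.0626 to 0.0851). Uqcrc1, a core protein on the matrix side, stood at 216, 209 and 224 CPM in controls and 178, 181 and 194 CPM in CCl4 livers. Its groups did not overlap either (-0.23, SE 0.06, adjusted p = 0.0127), a call that ended when CCl4 replicate 1 or 2 was left out (0.0515 to 0.056). The other core protein gene, Uqcrc2 (-0.23, adjusted p = 0.0145), and Cyc1, the cytochrome c1 that hands electrons to cytochrome c (-0.20, adjusted p = 0.02), were called too. Uqcrc2 lost its call without control replicate 3 or CCl4 replicate 1 or 2 (0.0506 to 0.0544), and Cyc1 also without control replicate 1 (0.0529 to 0.0811). The Rieske iron-sulfur protein gene Uqcrfs1 was not called (-0.11, adjusted p = 0.17), although its groups did not overlap.

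In complex IV, 3 of 3 mitochondrial and 6 of 8 nuclear members were called lower (81.8% together), close to the 80% of the complex III members. Over all tested genes 20.1% were called lower, and 42.7% among those of at least 40 CPM. In the separate list of other nuclear complex IV subunits, 0 of 7 tested were called lower. mt-Co1, the catalytic subunit with the haem and copper centres where oxygen is reduced, was the most abundant member. It stood at 24478, 25087 and 24644 CPM in controls and at 20263, 19631 and 18366 CPM in CCl4 livers (-0.35, SE 0.07, adjusted p = 0.00272). The controls agreed closely and every CCl4 library lay far below them. mt-Co3 stood at 326, 308 and 296 CPM in controls and 256, 233 and 202 CPM in CCl4 livers (-0.43, SE 0.09, adjusted p = 0.0034). mt-Co2, which receives electrons from cytochrome c, was called at -0.26 (adjusted p = 0.0184), and was no longer called when control replicate 1 or 2 or CCl4 replicate 2 was left out (0.0506 to 0.0635). With counts of the copies added, both mt-Co2 and mt-Co3 remained called.

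Among the nuclear subunits of complex IV, Cox6c, a small subunit around the catalytic core, had the smallest adjusted p of all members. It stood at 151, 137 and 141 CPM in controls and at 111, 109 and 111 CPM in CCl4 livers. The CCl4 libraries were nearly equal and all lower (-0.37, SE 0.06, adjusted p = 0.000687). Cox4i1, the main isoform of a regulatory subunit and the nuclear member of the complex with the most counts, stood at 261, 242 and 253 CPM in controls and 224, 224 and 226 CPM in CCl4 livers. It was called by a narrower margin (-0.16, SE 0.05, adjusted p = 0.0369), and lost the call without control replicate 1 or 3 or CCl4 replicate 1 or 2 (0.0805 to 0.115). Ndufa4, once assigned to complex I and now to complex IV, stood at 216, 202 and 219 CPM in controls and 175, 176 and 168 CPM in CCl4 livers (-0.29, SE 0.06, adjusted p = 0.00289). Cox6a1, the isoform of liver and most other tissues, stood at 177, 174 and 177 CPM in controls and 152, 150 and 155 CPM in CCl4 livers (-0.21, adjusted p = 0.00924). These groups were tight and did not overlap.

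The other nuclear complex IV members were closer to the threshold. Cox5b, which binds zinc on the matrix side, had a log2 fold change of -0.17 (adjusted p = 0.0283) and lost its call without control replicate 1 or 3 or CCl4 replicate 1 or 2 (0.0506 to 0.103). Cox5a, its neighbour, had -0.15 (adjusted p = 0.0482) and lost its call without any one library other than CCl4 replicate 3 (0.0729 to 0.178). Cox5a was also not called with the replicate block (adjusted p = 0.069), DESeq2 (0.164), limma-voom (0.055), no filter (0.067) or the stricter filter (0.0627). Cox7a2, the isoform found in most tissues, was not called (-0.11, adjusted p = 0.1). Cox7a1, the heart and muscle isoform that brown fat also expresses, was near the detection limit. It stood at 0.691, 0.539 and 1.32 CPM in controls and 0.554, 0.543 and 0.736 CPM in CCl4 livers, with as few as 10 counts in a library. Its groups overlapped (-0.48, SE 0.38, adjusted p = 0.354). Its highest library, control replicate 3, also had the highest summed level of 6 adipocyte markers, 28.6 CPM against 2.16 to 12.9 CPM in the other libraries. The part of that tissue in the value was not tested.

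ATP synthase members were called lower in 1 of 2 cases in each genome. mt-Atp6, the membrane subunit that forms the proton path, stood at 304, 293 and 277 CPM in controls and at 236, 225 and 196 CPM in CCl4 livers. It had the smallest adjusted p of the mitochondrial genes (-0.41, SE 0.08, adjusted p = 0.00224). mt-Atp8, with 28 counts in its lowest library, stood at 3.03, 1.89 and 1.75 CPM in controls and at 2.52, 2.12 and 1.37 CPM in CCl4 livers. Groups overlapped, and the standard error was too wide to place the change (-0.15, SE 0.29, adjusted p = 0.713).

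The nuclear ATP synthase members encode the catalytic head. Atp5a1, its alpha subunit, stood at 894, 888 and 941 CPM in controls and at 780, 787 and 815 CPM in CCl4 livers (-0.19, SE 0.06, adjusted p = 0.0275). Groups did not overlap, and the call was lost without control replicate 1 or 3 or CCl4 replicate 1 or 2 (0.0593 to 0.0965). Atp5b, its beta subunit and the most abundant nuclear member, stood at 1142, 1132 and 1247 CPM in controls and 1023, 1046 and 1147 CPM in CCl4 livers. CCl4 replicate 3 lay within the control range and the gene was not called (-0.13, SE 0.07, adjusted p = 0.172).

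**Figure D3:**
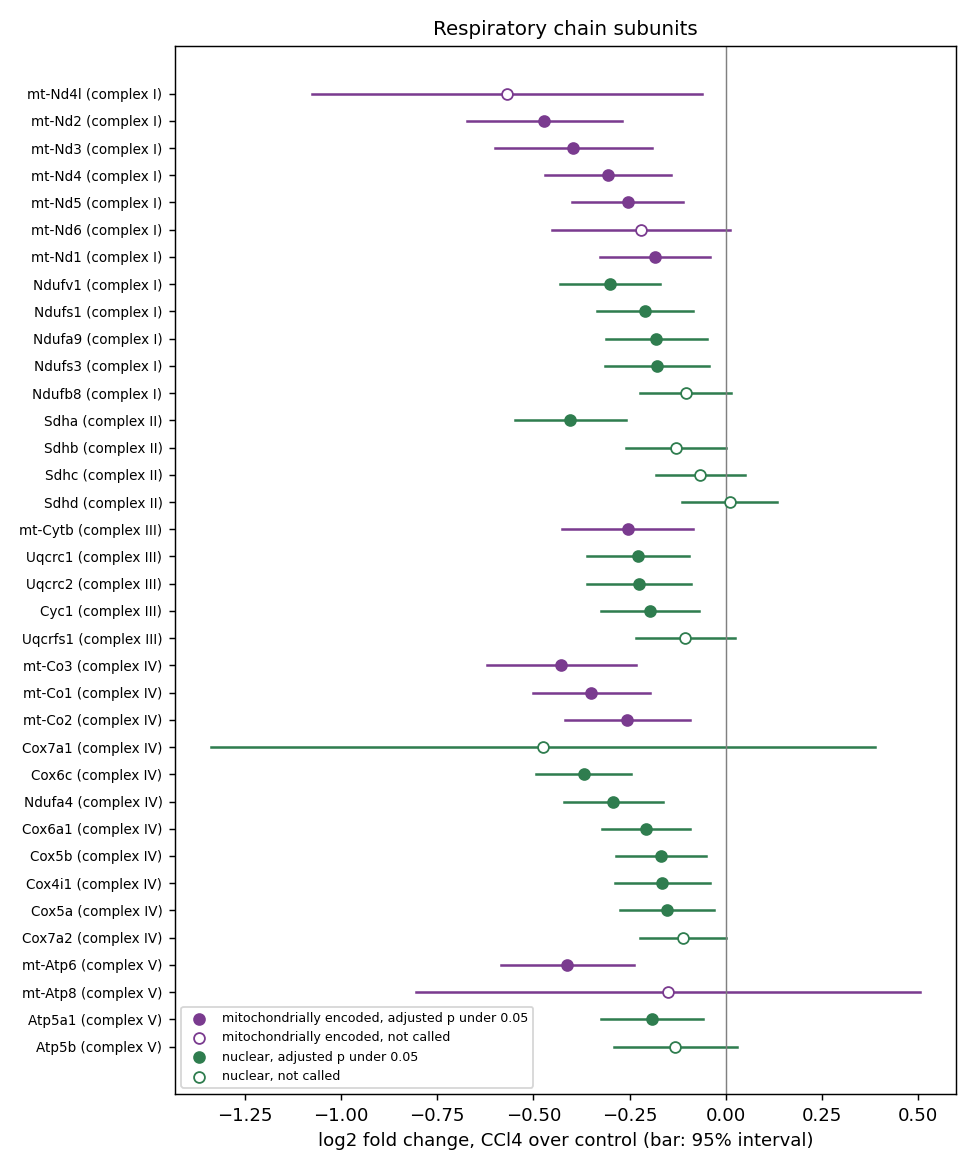
Log2 fold change (CCl4 over control) of the 36 members with 95% intervals, ordered by complex and genome; filled points passed an adjusted p of 0.05 in edgeR's quasi-likelihood test. All points but that of Sdhd lie below 0, and the widest intervals are those of mt-Atp8, Cox7a1 and mt-Nd4l.

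The genomes were then set side by side. Calls were made for 10 of 13 mitochondrial members and 15 of 23 nuclear ones. Over all tested genes 20.1% were called lower, and 42.7% among those of at least 40 CPM. Over all 81 nuclear subunits tested, members and others together, 30 were called lower (37.0%) and 3 higher, with a median of -0.13. The nuclear values below are those of the selected members. With every library left out in turn, 6 of the calls of mitochondrial members and 5 of those of nuclear members held. The median log2 fold change was -0.31 over the mitochondrial members (range -0.57 to -0.15) and -0.18 over the nuclear ones (range -0.48 to 0.01), a gap of -0.13. Without CCl4 replicate 3 the medians were -0.25 and -0.21 and the gap -0.04. For mitochondrial genes without an annotated near-identical copy alone, the gap was -0.06.

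As a share of all counts, the mitochondrial members made up 4.89, 4.83 and 4.83% in controls and 4.43, 4.37 and 4.14% in CCl4 livers. The means were 4.85% ± 0.0373 (SD, n = 3) and 4.31% ± 0.151, a difference of -0.536 percentage points without overlap. mt-Co1 alone gave 48.5% and 47.3% of these counts on average. The nuclear members made up 0.508, 0.499 and 0.526% of all counts in controls and 0.473, 0.486 and 0.525% in CCl4 livers, and these groups overlapped. These shares are relative to the total, without scaling factors.

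The ratio of mitochondrial to nuclear member counts was 9.63, 9.68 and 9.17 in controls and 9.35, 8.99 and 7.89 in CCl4 livers. The groups overlapped, because CCl4 replicate 1 lay above control replicate 3. CCl4 replicate 3 had the lowest ratio. Within complexes, the log2 ratio of mitochondrial to nuclear counts changed by -0.08 for complex I, -0.07 for complex III, -0.13 for complex IV and -0.26 for ATP synthase, and the groups were apart for complex IV alone.

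**Figure D4:**
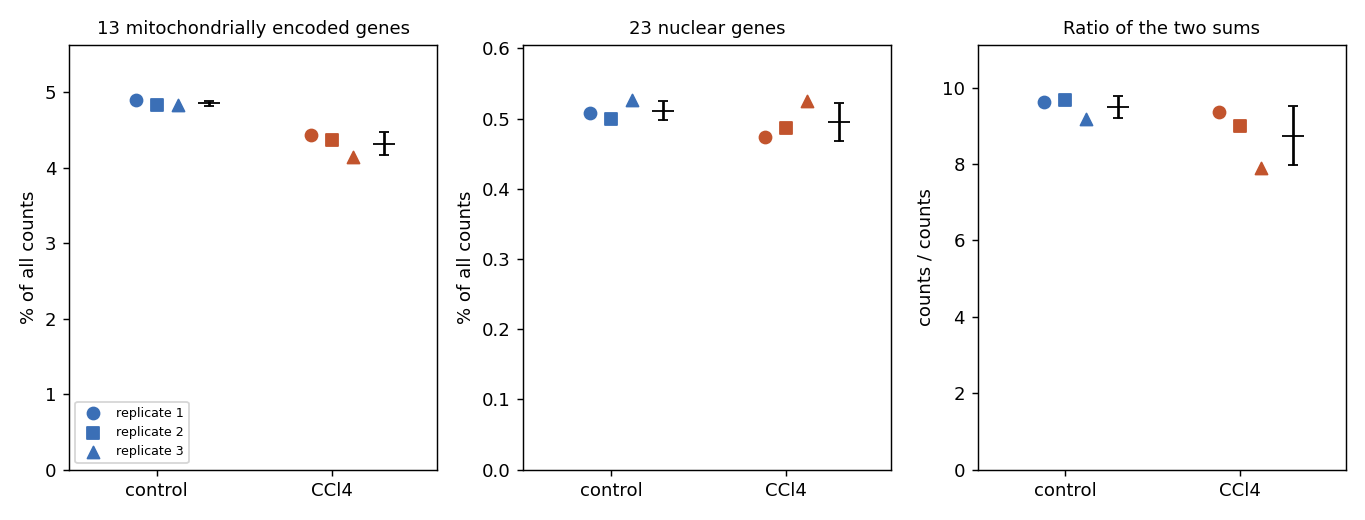
Share of all counts (%) in the 13 mitochondrially encoded members (left) and the 23 nuclear members (middle), and the ratio of these sums (right), for each library, with the group mean ± SD in black; all axes start at 0. The groups are apart for the mitochondrial share (4.83 to 4.89% against 4.14 to 4.43%) and overlap for the nuclear share and the ratio.

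CCl4 replicate 3 took a different place in the mitochondrial and the nuclear members. It was the lowest CCl4 library for 13 of 13 mitochondrial members and the highest for 18 of 23 nuclear members. The same library had the lowest summed cycling cell markers of its group (76.9 CPM). It also stood apart over all genes, with a chi-square per gene of 20.4 and 26.2 against the other CCl4 libraries, where those differed from each other by 5.77. Leaving it out gave 26 called members, 9 mitochondrial and 17 nuclear. Without CCl4 replicate 1 or CCl4 replicate 2, 5 nuclear members were called in either case, and without control replicate 1 or 3 the nuclear counts were 8 and 7.

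Promoters of nuclear members were examined for sites of factors known to bind such genes. Windows of 300 bases around the start site, from RefSeq (GRCm38.p6), were found for 16 of the 23 genes. A pair of stretches is printed to show the motif that occurred most often, with the match to the motif of NRF1, an activator of many respiratory chain genes, in capitals. The first, of Cox6a1, is chr5:115349086-115349145 on the minus strand, where the match begins 162 bases upstream of the start. The second, of Sdhb, is chr4:140961192-140961251 on the plus strand, where it begins 54 bases upstream.
Cox6a1: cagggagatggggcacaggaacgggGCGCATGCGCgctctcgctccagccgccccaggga
Sdhb: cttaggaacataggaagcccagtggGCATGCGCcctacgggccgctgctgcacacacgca
On both strands, the motif of 10 bases in capitals in Cox6a1 occurred in 2 of 16 member windows (Cox6a1 and Uqcrc1) and in 0.971% of 32851 windows of the same length. The shorter GCATGCGC, which the longer motif contains, occurred in 3 of 16 (these and Sdhb) and in 2.71% of all windows. CCGGAAGT, bound by GABPA and other ETS factors, occurred in Ndufs3 alone (3.89% of all windows), and TCAAGGTCA, bound by ESRRA, in Sdhd alone (0.423%). Mean GC content was 58.5% in member windows and 53.8% in all.

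Transcripts of factors that regulate mitochondrial biogenesis had the lowest median among the nuclear lists of the pathway. Of 14 tested, 7 were called lower and 0 higher in edgeR (median -0.39). Over all tested genes 20.1% were lower and 21.2% higher. The count higher in this list was 1 at an unadjusted p under 0.05, and 0 with DESeq2 or limma-voom. Under upper quartile scaling and under library size alone, 7 were lower and 1 higher. Ppara, the nuclear receptor that drives fatty acid oxidation, changed by -1.27 (adjusted p = 3.91e-06). Gabpa, the DNA-binding part of an activator of cytochrome oxidase genes, stood at 69.9, 74.1 and 73.5 CPM in controls and 53.2, 50.2 and 51.9 CPM in CCl4 livers (-0.49, SE 0.05, adjusted p = 0.000119). Sirt3, the main mitochondrial deacetylase (-0.59, adjusted p = 0.000162), Yy1, a transcription factor (-0.41, adjusted p = 0.000343), the coactivator Ppargc1b (-0.92, adjusted p = 0.00209), the nuclear deacetylase Sirt1 (-0.43, adjusted p = 0.00712) and Esrrg, a nuclear receptor, were the other genes called. Esrrg had 44 to 61 counts per library in controls and 1, 1 and 7 in CCl4 livers (adjusted p = 0.000155).

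Other regulators of the same list were not called. Ppargc1a, the coactivator often described as the master regulator of biogenesis, stood at 12, 9.55 and 14.4 CPM in controls and 8.81, 7.61 and 11.2 CPM in CCl4 livers. Its groups overlapped (-0.38, SE 0.18, adjusted p = 0.137). Nrf1 (-0.08, adjusted p = 0.521) and Esrra (0.20, adjusted p = 0.0513) were not called, and Esrra was called higher under upper quartile scaling (adjusted p = 0.0112) and library size alone (0.0074).

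Among genes that transcribe and maintain mitochondrial DNA, 5 of 28 were called lower and 0 higher (median -0.15; 0 higher at an unadjusted p under 0.05, with DESeq2 or with limma-voom), with 2 lower and 1 higher under library size alone. The share lower was not above the 20.1% of all tested genes. Lrpprc, which stabilises mitochondrial messenger RNAs, stood at 138, 142 and 156 CPM in controls and 110, 111 and 119 CPM in CCl4 livers. All CCl4 libraries were lower (-0.36, SE 0.06, adjusted p = 0.00171). Tfam, which packages mitochondrial DNA and starts its transcription, stood at 44.7, 45.9 and 50.9 CPM in controls and at 44.2, 43.3 and 41.3 CPM in CCl4 livers. It was not called (-0.14, SE 0.07, adjusted p = 0.125), although the groups did not overlap.

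Of the ribosomal RNAs of the mitochondrion, 1 was called. mt-Rnr2, the large rRNA, stood at 4365, 4151 and 4458 CPM in controls and 3093, 2602 and 2783 CPM in CCl4 livers, and was called lower (-0.61, SE 0.08, adjusted p = 0.00028). mt-Rnr1, the small rRNA, stood at 2577, 2557 and 2581 CPM in controls and 2530, 2533 and 2080 CPM in CCl4 livers, and was not called (-0.11, adjusted p = 0.32). The ratio of mt-Rnr1 to mt-Rnr2 counts was 0.590, 0.616 and 0.579 in controls and 0.818, 0.974 and 0.747 in CCl4 livers, without overlap. Library preparation aimed at messenger RNA captures rRNA unevenly, so these levels are not amounts of rRNA. Nuclear copies of the rRNA genes were not searched for.

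Of the other nuclear subunits, 58 were tested. Among them 15 were called lower and 3 higher (median -0.11), where 20.1% of all tested genes were lower and 21.2% higher. The count lower was 5 without control replicate 1, 8 without control replicate 3, and 6, 7 and 10 without CCl4 replicates 1, 2 and 3. Upper quartile scaling gave 3 lower and 4 higher. By complex, those lower were 7 of 31 in complex I, 2 of 5 in complex III, 0 of 7 in complex IV and 6 of 15 in ATP synthase. In that complex IV list edgeR gave 1 lower gene at an unadjusted p under 0.05, and DESeq2 and limma-voom called 0. With 1 library left out, the count lower fell to 3 in complex I (without control replicate 1), to 1 in complex III (without control replicate 1 or 3 or CCl4 replicate 1 or 3) and to 1 in ATP synthase (without control replicate 1 or CCl4 replicate 1 or 2). It was 4 in complex I without control replicate 3 or CCl4 replicate 1 or 2, 3 in ATP synthase without control replicate 3 or CCl4 replicate 3, and 1 in complex IV without control replicate 2. Ndufs7, an iron-sulfur subunit of complex I, stood at 47.0, 45.1 and 47.4 CPM in controls and 37.2, 35.3 and 34.2 CPM in CCl4 livers (-0.39, SE 0.06, adjusted p = 0.000667). Uqcr11, a small subunit of complex III (-0.32, adjusted p = 0.0026) and Atp5c1, the gamma subunit of ATP synthase (-0.21, adjusted p = 0.0151), were the genes called lower with the smallest adjusted p in their lists. Atp5c1 lost its call without control replicate 1 or CCl4 replicate 2 (at most 0.0695). Under library size alone 1 of the 58 genes was lower and 9 were higher, so the direction of this list depended on the scaling.

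The genes called higher among these subunits were Cox6b2, Atpif1 and Atp5g1. Atpif1, the inhibitor of the reverse action of ATP synthase, stood at 5.32, 6.04 and 5.24 CPM in controls and 9.01, 9.98 and 11.9 CPM in CCl4 livers (0.90, SE 0.13, adjusted p = 0.000658). Cox6b2, the testis isoform of a complex IV subunit, had 3, 4 and 1 counts in controls and 16, 11 and 25 in CCl4 livers (adjusted p = 0.00368), a level of at most 1.23 CPM. Atp5g1, which encodes the c subunit of the rotating ring, changed by 0.19 (adjusted p = 0.0351), and its call was lost without any one library other than CCl4 replicate 1 (at most 0.123). Cox4i2, the low-oxygen isoform of Cox4i1, had 0 to 2 counts per library and was not tested, and Ndufa4l2, the paralog of Ndufa4 that low oxygen induces, was not called (0.37, adjusted p = 0.284).

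Calls among electron carriers and assembly factors were few. Of 14 genes for cytochrome c and coenzyme Q synthesis, 3 were lower and 2 higher (median -0.16), near the 20.1% lower of all tested genes. The count higher was 0 without control replicate 1 or 2, and 1 without control replicate 3 or CCl4 replicate 2 or 3. Coq10a, a coenzyme Q binding protein, stood at 26.7, 24.8 and 30.01 CPM in controls and 12.7, 15.1 and 16.3 CPM in CCl4 livers (-0.89, SE 0.11, adjusted p = 0.000202). Coq8b, a kinase-like protein of coenzyme Q synthesis, changed by 0.31 (adjusted p = 0.0207) and lost its call without control replicate 1 or 2 or CCl4 replicate 2 (at most 0.0843). Cycs, cytochrome c itself, was not called (0.07, adjusted p = 0.438). Of 42 assembly factors, 7 were lower and 3 higher (median -0.09). Under library size alone the median of the assembly factors was 0.05, with 2 lower and 6 higher. The count of them called higher was 0 without control replicate 1 or CCl4 replicate 2, and 1 without control replicate 3 or CCl4 replicate 3. Ecsit, needed to assemble complex I, changed by -0.44 (adjusted p = 0.000854), and Coa3, needed for complex IV, by 0.23 (adjusted p = 0.0149). The call of Coa3 was lost without control replicate 1 or CCl4 replicate 2 (at most 0.0623).

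Lists that feed or surround the chain had medians below 0 under TMM scaling and above 0 under library size alone. Of 18 genes of the tricarboxylic acid cycle and pyruvate dehydrogenase, 7 were lower and 1 higher (median -0.12), and over all tested genes 20.1% were lower and 21.2% higher. Pdha1, a subunit of pyruvate dehydrogenase, changed by -0.63 (adjusted p = 7.74e-05). The gene called higher was Idh2, an NADP-dependent isocitrate dehydrogenase, which stood at 97.1, 104 and 108 CPM in controls and 131, 134 and 164 CPM in CCl4 livers (0.47, SE 0.09, adjusted p = 0.0027). Of 50 mitochondrial ribosomal proteins, 12 were lower and 2 higher (median -0.07), with the large-subunit proteins Mrpl1 at -0.31 (adjusted p = 0.00483) and Mrpl18 at 0.32 (adjusted p = 0.00533). Under library size alone 0 of these 50 were lower and 10 higher (median 0.08), and 3 of the 18 cycle genes were lower and 3 higher (median 0.02).

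Among 29 genes of import, channels and dynamics, 9 were lower and 3 higher (median -0.11), and 3 lower and 8 higher under library size alone (median 0.04). The count lower was 4 without control replicate 3 or CCl4 replicate 2 and 6 without CCl4 replicate 1, and over all tested genes 20.1% were lower. Mfn2, which fuses outer membranes, changed by -0.43 (adjusted p = 0.00027). Ucp2, an inner membrane carrier that is abundant in macrophages, stood at 21.6, 21.9 and 18.1 CPM in controls and at 52.5, 53.9 and 53.4 CPM in CCl4 livers (1.38, SE 0.08, adjusted p = 3.91e-06). The macrophage markers given above rose in the same libraries, and their part in this value was not tested.

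**Figure D5:**
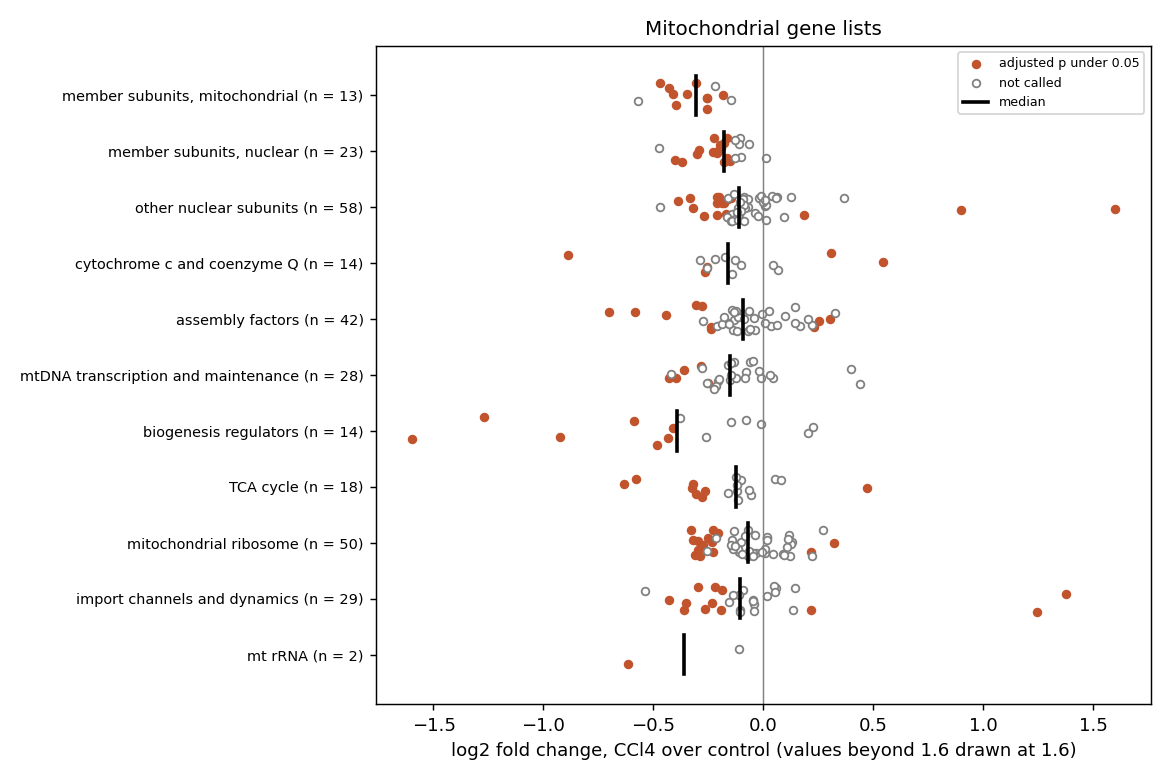
Log2 fold change (CCl4 over control, TMM scaling) of the members and of the other mitochondrial gene lists, one point per tested gene, with the median of each list as a black bar; values beyond the axis limit are drawn at its edge. The biogenesis regulators have the lowest median of the nuclear lists (-0.39), and the mitochondrial ribosomal proteins the one nearest 0 (-0.07).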

How the data were processed

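Liver RNA-seq libraries, 3 labelled oil and 3 labelled CCl4, were analysed and grouped by the treatment label. The authors deposited whole-number counts per gene. Per the series' design text reads were filtered and aligned with HISAT2, and per the submitters' processing notes they were counted with featureCounts. Versions, genome build, annotation, strand setting and multi-mapping setting: not given in the sources used here. Per the labels' protocols the library kit was one for messenger RNA, and no molecular identifiers are named. Library totals ran from 18929972 to 20042731 counts, and the lowest count of a member in a library was 10.

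Symbols, lengths, strands and transcripts came from GENCODE M21 (GRCm38), matched by Ensembl identifier, and promoters from the RefSeq table. Copies of the mitochondrial members were searched for with blastn 2.17.0 among all annotated transcripts other than mitochondrial ones. Those found were annotated as pseudogenes. The test was run with edgeR 4.0.16 under R 4.3.3 (filterByExpr, TMM, glmQLFit and glmQLFTest with robust estimation), with Benjamini-Hochberg adjustment over all genes tested and a threshold of 0.05. It was also tried on simulated counts. CPM values use TMM-scaled library sizes. SE is the log2 fold change over the square root of F.

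Values in every library are given for the member of smallest adjusted p and the one of highest mean CPM in each complex and genome. From every other list the called gene of smallest adjusted p in each direction is named, some with a fold change and adjusted p alone. Cox7a1, Ppargc1a, Tfam, Cycs, Cox4i2, Ndufa4l2 and Ucp2 were named whatever their result. Other genes and all ratios were chosen after their values were seen. The members and lists were chosen with earlier results of these data known. Alternatives were other scalings, filters, DESeq2 1.42.0, limma-voom 3.58.1, a minimum fold change of 1.2, a block for the replicate number, and leaving out each library. Adding the counts of nuclear copies was chosen after seeing the data. The lists also held Dmac2l and Fastkd4, which matched no row. Of marker lists whose calls are not given above, 4 of 5 biliary, 1 of 5 lymphocyte and 3 of 4 erythroid markers were called higher, 1 of 6 endothelial and 1 of 4 erythroid markers lower, and 0 of the muscle and adipocyte markers, of which 1 each was tested. The higher lymphocyte call was lost without any one library, the endothelial one without control replicate 1 or 2 or CCl4 replicate 2 or 3, and the higher erythroid ones without control replicate 1 or any CCl4 library.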

Additional observations from a re-analysis of the deposited data

How the results depend on the processing

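The main counts of called genes were 25 members, 10 mitochondrial, 15 nuclear and 6427 in the whole table. Upper quartile scaling gave 10 members, 6 mitochondrial and 4 nuclear, and library size alone gave 8, 5 and 3. A minimum fold change of 1.2 gave 2, 1 and 1, and 3556 in the whole table. Leaving out 1 library gave 12 to 26 members, 7 to 9 mitochondrial, 5 to 17 nuclear and 5228 to 6409 genes. DESeq2 called 21 members, without Ndufa9, Ndufs3, Cox4i1, Cox5a and Cox5b, and limma-voom 24, without Cox5a. Whole-table splits were 4103 higher and 2177 lower under upper quartile scaling, and 4817 and 1678 under library size alone. The fit with the replicate block called 24 members and 6416 genes, and Cox5a was the member no longer called. Same-numbered libraries deviated together at correlations of 0.0483, 0.00396 and 0.0635, and differently numbered ones at -0.0803 to 0.0365. The labels do not say what the number stands for, and these values cannot decide whether it marks a pairing or batch. The gap between the medians of the genomes ran from -0.174 to -0.037 with 1 library left out, and the difference in mitochondrial share from -0.593 to -0.450.

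Fold changes that turned sign, none of them called, were as follows. With 1 library left out, mt-Atp8 ran from -0.342 to 0.135 (above 0 without control replicate 1 and, at 0.06, without CCl4 replicate 3) and Sdhd from -0.0128 to 0.0375 (below 0 without control replicate 1 and, at -0.0076, without control replicate 2). With no filter Sdhd was -0.0027. Sdhc was 0.0205 under upper quartile scaling. Under library size alone Ndufb8 was 0.0423, Sdhb 0.0185, Sdhc 0.0805, Uqcrfs1 0.0420, Cox7a2 0.0342 and Atp5b 0.0167. The cause was not tested. Counts below 100 per library limit mt-Atp8 and Cox7a1. Unknown counting of multi-mapping reads limits the levels of at least 7 mitochondrial members.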

Other observations

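Transfer RNA genes of the mitochondrion, cut from the same precursors as the members, were examined after their values were seen. Of 22 such genes 14 had enough counts to be tested, and 10 were called lower and 0 higher with edgeR's quasi-likelihood test (median log2 fold change -0.77). None was higher at an unadjusted p under 0.05, with DESeq2 or with limma-voom. Under library size alone 7 were lower and 0 higher. mt-Tp, on the strand of mt-Nd6, stood at 132, 118 and 126 CPM in controls and 70.7, 69.2 and 72.6 CPM in CCl4 livers (-0.82, SE 0.06, adjusted p = 1.2e-05). All CCl4 libraries were close to each other and far below the controls. mt-Tn (-0.77, adjusted p = 4.87e-05), mt-Tc (-1.17, adjusted p = 6.44e-05) and mt-Ty (-1.25, adjusted p = 0.000451) lie on that strand too. By strand, 5 of 6 tested on that of mt-Nd6 and 5 of 8 on the other were lower. Over all tested genes 20.1% were lower. The use of strand in counting was not given, so reads at these genes may come from the opposite strand. Nuclear copies of the tRNA genes were not searched for. Mature tRNAs are short and are poorly captured by messenger RNA libraries, so these counts may include unprocessed precursor, and the difference between tRNAs and messages was not tested.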
